A study of Homo sapiens with 12 samples.

Results

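The 9 genes described here encode enzymes that connect glutamine, aspartate and malate with the mitochondrial tricarboxylic acid cycle, namely GLUL, GLUD1, OGDH, GPT2, GOT1, GOT2, MDH1, MDH2 and ASS1. They were taken by symbol from a table of 70116 Ensembl gene identifiers, each symbol matched 1 identifier, and all 9 were among the 16197 genes with enough reads to be tested. RNA with a poly(A) tail was sequenced from MiaPaCa-2, a widely used line of human pancreatic carcinoma cells, transfected with a control siRNA (siControl) or with siRNA against SLC25A1 (siSLC25A1), ACLY (siACLY) or ACO1 (siACO1), with 3 libraries in each of the 4 groups. SLC25A1 exports citrate from mitochondria, ACLY cleaves citrate in the cytosol to give acetyl-CoA plus oxaloacetate, while ACO1 is the cytosolic aconitase, which also binds iron-responsive elements. All groups are 1 cell line after transient transfection. The siRNA sequences, the number of siRNAs for each target, the nutrients at harvest and the hours after transfection are not given in the sources used here, so effects of a target and of a siRNA's own sequence cannot be told apart.

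As background, glutamine supplies proliferating cells with nitrogen and carbon. Glutamate made from it becomes alpha-ketoglutarate through glutamate dehydrogenase or through transaminases, and enters the cycle at the oxoglutarate dehydrogenase complex. The cytosolic and mitochondrial forms of aspartate transaminase and of malate dehydrogenase, with their carriers, form the malate-aspartate shuttle, which moves reducing equivalents from NADH across the inner mitochondrial membrane. In pancreatic cancer cells this network is known for feeding glutamine-derived aspartate to the cytosol, where GOT1 and MDH1 act in turn on it.

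The 9 genes did not move as a block. ASS1, GLUD1 and GPT2 fell in siACO1, to 47.2%, 59.3% and 68.9% of siControl by the fitted fold changes. OGDH fell less in siACO1, to 91.0%. GOT1, MDH1, OGDH and GLUL rose in siACLY, where ASS1, GPT2 and MDH2 fell. In siSLC25A1, GOT1 and GPT2 rose and MDH2 fell. GOT2 passed the test in none of the 3 knockdowns, and MDH2 was lower in all 3.

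**Figure D1:**
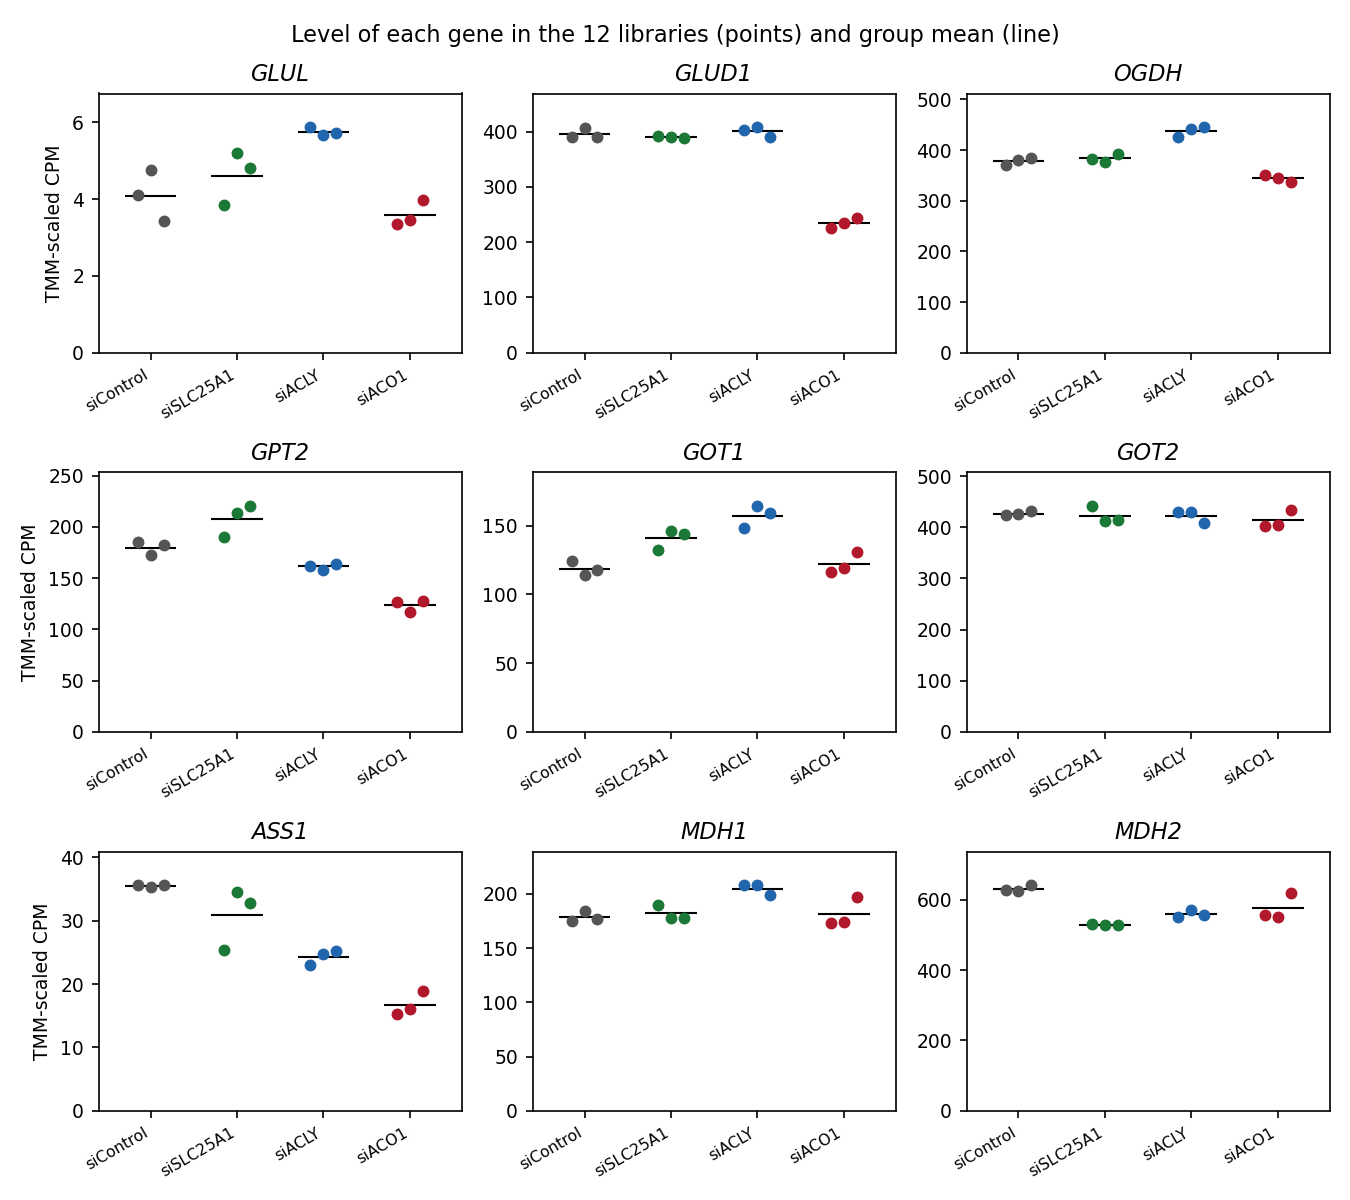
TMM-scaled CPM (read counts scaled to a common library size, linear axis from 0) of each of the 9 genes in the 12 libraries, as points by group, with the group mean as a line. The siACO1 libraries sit below all others for GLUD1, GPT2, OGDH and ASS1. The siACLY libraries sit above the control libraries for GLUL, OGDH, GOT1 and MDH1, and all 4 groups of GOT2 overlap.

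Library totals ran from 24159424 to 43792811 counts. The targeted transcripts fell to 8.75% (SLC25A1), 7.24% (ACLY) and 3.72% (ACO1) of their siControl level in the groups named for them. The third siACO1 library stood apart from its replicates, at a root mean square log2 difference of 0.261 and 0.267 over 12762 genes, against 0.191 to 0.24 for the other 10 replicate pairs. Values against siControl in siACO1 are therefore also given without it. The epithelial keratins KRT8 (2193 to 2278 CPM in siControl) and KRT18 and the mesenchymal filament gene VIM were abundant, acinar, endocrine and leukocyte markers (PRSS1, CPA1, INS, GCG, PTPRC) had no counts, and COL1A1 and PECAM1 had at most 9. In the siACO1 libraries KRT8 was at 1297 to 1306 CPM and KRT18 at 770 to 807 CPM (1284 to 1317 in siControl). VIM was at 3571 to 3821 CPM there and at 3423 to 3610 CPM in siControl. The lower keratins stand beside the falls described for that group, and whether they are linked was not tested. Nothing in the labels says that the 3 libraries of a group came from separate cultures, so p-values measure the spread between these libraries, which may be technical.

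Apart from those markers, levels were given as TMM-scaled CPM (read counts scaled to a common library size by the trimmed mean of M values), as mean ± SD over 3 libraries. Genes were compared with each other only after division by exon length, which joins the exons of all annotated transcripts of a gene. It can exceed the length of the transcripts expressed, so places in the order depend on it (4990 bases for MDH1, 5210 for OGDH). Among control libraries the order on the CPM per kilobase scale was MDH2 (173 ± 2.44), GOT2 (113 ± 0.985), GLUD1 (112 ± 2.51), OGDH (72.7 ± 1.54), MDH1 (35.8 ± 0.995), GOT1 (35.3 ± 1.57), GPT2 (28.3 ± 1.11), ASS1 (11.6 ± 0.0425) and GLUL (0.453 ± 0.0728). The libraries of GOT2 and GLUD1 overlapped, as did those of MDH1 and GOT1, and all other neighbours in the order were separate. On this scale both mitochondrial forms, MDH2 and GOT2, had higher levels than their cytosolic partners MDH1 and GOT1.

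A gene was called changed at an adjusted p under 0.05 in edgeR's quasi-likelihood test. The test used all 12 libraries, and Benjamini-Hochberg adjustment was over all 16197 genes. In siSLC25A1 3 of the 9 genes were called, 2 higher and 1 lower, against 19.6% of all genes tested (10.3% higher, 9.27% lower) and 29.3% of the 8760 better-expressed genes (mean of 10 CPM or more). In siACLY 7 were called, 4 higher and 3 lower, against 36.7% of all genes (18.4% higher, 18.3% lower) and 48.6% of the better-expressed ones. In siACO1 5 were called, all of them lower, against 37.1% of all genes called in either direction, 17.8% called higher and 19.3% lower, and 50.3% of the better-expressed ones called in either direction. The median log2 fold change of the 9 genes was 0.02 in siSLC25A1, 0.02 in siACLY and -0.14 in siACO1, beside 0.00, 0.01 and 0.01 for all genes. Their median absolute log2 fold change was 0.16, 0.20 and 0.14, beside 0.15, 0.20 and 0.21 for all genes. The 3 comparisons share the control libraries.

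**Figure D2:**
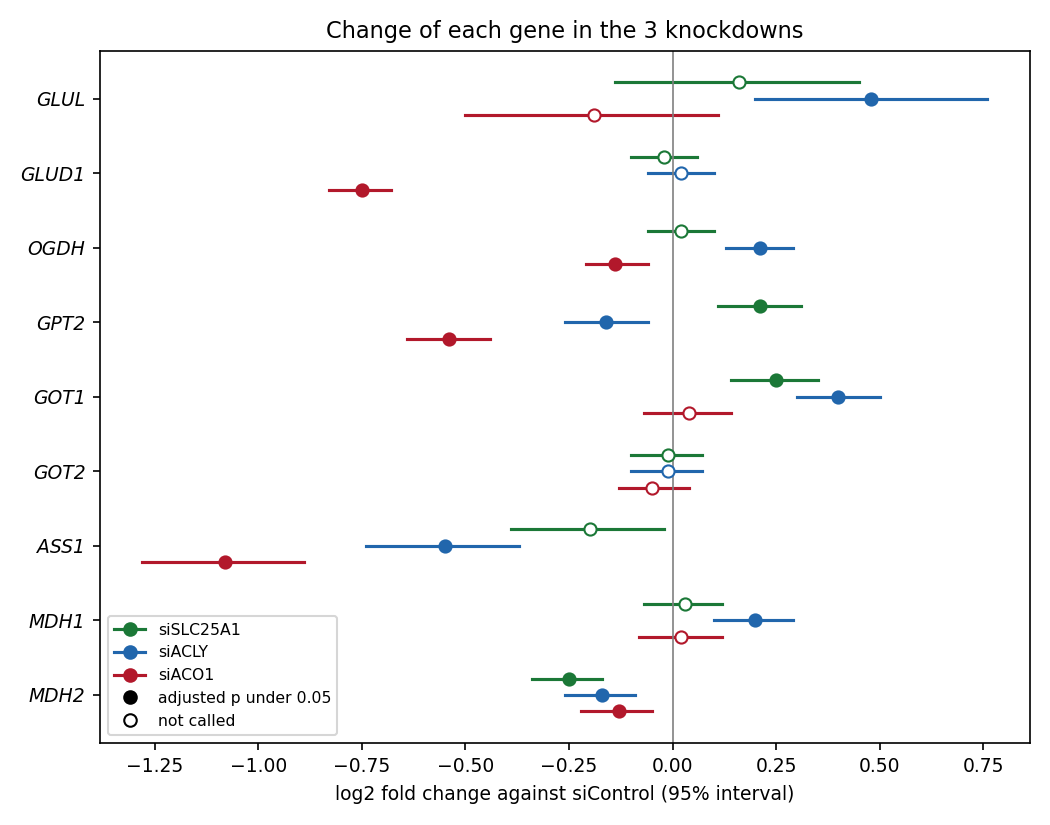
Log2 fold change of each gene against siControl with its 95% interval, by knockdown. Filled points passed the threshold (adjusted p under 0.05) and open points did not. ASS1 at -1.08 and GLUD1 at -0.75 in siACO1 lie farthest to the left, and GLUL at 0.48 and GOT1 at 0.40 in siACLY farthest to the right.

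GLUL (ENSG00000135821.19; GRCh38 chr1:182381704-182392206, minus strand) encodes glutamine synthetase, which joins ammonia to glutamate. It was the scarcest of the 9, with 83 to 261 counts in a library. Control libraries held 4.10, 4.75 and 3.43 CPM, siSLC25A1 libraries 3.84, 5.19 and 4.81, siACLY libraries 5.87, 5.66 and 5.71, and siACO1 libraries 3.34, 3.45 and 3.98. All siACLY libraries were above all control libraries, while the other groups overlapped the controls. The rise in siACLY had a log2 fold change of 0.48 (SE 0.14, adjusted p = 0.00681), and without the third control library it was 0.37 and no longer called (adjusted p = 0.0588). In siSLC25A1 and siACO1 the 95% intervals of the log2 fold change were -0.14 to 0.45 and -0.50 to 0.11. Without the third siACO1 library the siACO1 value was -0.28 against -0.19, again not called. SiACO1 differed from siSLC25A1 by -0.35 (adjusted p = 0.0613), and that difference was called without the third siACO1 library (-0.44, adjusted p = 0.0355) and without the first siSLC25A1 library (-0.48, adjusted p = 0.0196).

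GLUD1 (ENSG00000148672.10; GRCh38 chr10:87050486-87094866, minus strand) encodes mitochondrial glutamate dehydrogenase, which releases the amino group of glutamate as ammonia. Control libraries held 391, 406 and 391 CPM and siACO1 libraries 226, 234 and 243. The siSLC25A1 libraries (393, 391 and 389 CPM) and the siACLY libraries (404, 408 and 391 CPM) lay at the control level. The direct contrasts set siACO1 apart from both other knockdowns. The log2 fold change was -0.75 against siControl (SE 0.04, adjusted p = 3.87e-15), -0.74 against siSLC25A1 (adjusted p = 2.96e-15) and -0.77 against siACLY (adjusted p = 1.35e-15). Without the third siACO1 library the first of these was -0.78. In siSLC25A1 and siACLY the intervals against siControl were -0.10 to 0.06 and -0.06 to 0.10.

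Of the 31-base stretches of GLUD1 transcripts 32.2% also occur in other genes, among them the retrocopy GLUD2 and GLUD1 pseudogenes. In addition, 13.2% of its exon bases overlap the gene SHLD2 on the other strand, so the GLUD1 count is uncertain. The 7 GLUD copies listed in the table together held 74 to 167 counts in a library, at most 2.22% of the GLUD1 count. The annotated 3' UTR of GLUD1 (1265 bases, GENCODE release 29) also holds a heptamer that was more frequent among genes low in siACO1. As background, the seed of a siRNA can pair with 3' UTRs of transcripts other than its target. The siRNA sequences are not given, so no heptamer could be matched to a seed. The site is shown with the heptamer in capitals, at GRCh38 chr10:87050486-87050512, written 5′ to 3′ along the transcript (minus strand of the genome).
GLUD1 site: gttattaaaagTCTACGTtttccaaaa

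AACTAAC ranked first and TCTACGT second among heptamers associated with falls in siACO1. Since both were picked from these values, the following is a description. The median log2 fold change in siACO1 was -0.17 for the 191 genes with TCTACGT in the 3' UTR (1.78% of 10743 genes) and -0.02 for the rest, and 73.3% against 53.3% were below 0. In siSLC25A1 and siACLY the medians of the TCTACGT carriers were 0.00. For the 648 genes with AACTAAC the siACO1 median was -0.14, beside -0.02 for genes without it. Of the 9 enzymes only GLUD1 held TCTACGT, which ends 9 bases before the annotated end of the transcript, and none held AACTAAC. GLUD1 fell further than most carriers, since 21 of the 191 lay below it, as did 2.58% of the genes without the heptamer. Whether the fall of GLUD1 follows from this match or from lower ACO1 was not tested.

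**Figure D3:**
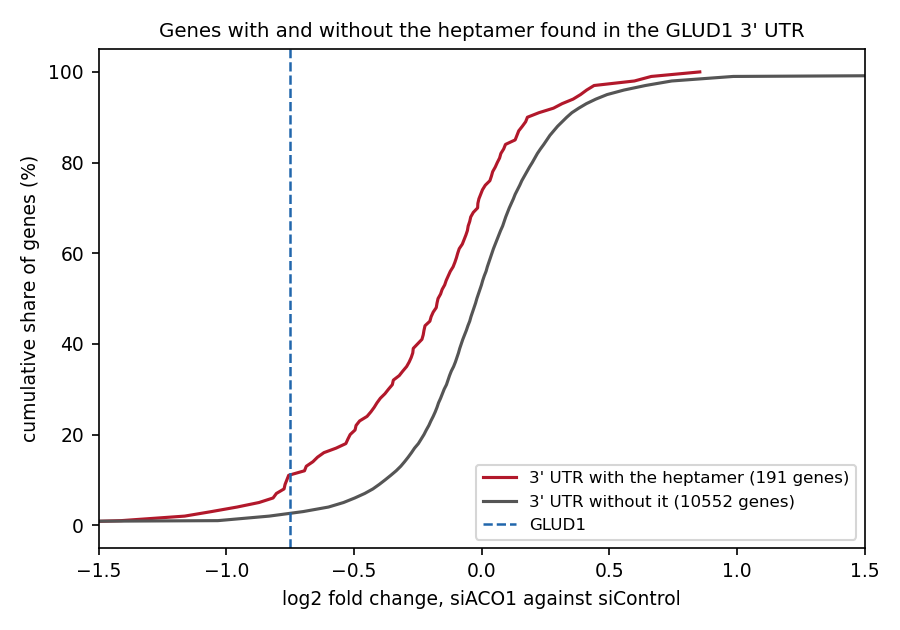
Cumulative share of genes (%) by log2 fold change in siACO1 against siControl, for the 191 genes whose 3' UTR holds the heptamer found in GLUD1 and for the 10552 without it. Genes beyond -1.5 and 1.5 are outside the axis. The heptamer was picked from these values, and GLUD1 is among its carriers. The carriers' curve lies to the left, and the dashed line marks GLUD1 at -0.75.

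OGDH (ENSG00000105953.16; GRCh38 chr7:44606572-44709066, plus strand) encodes the E1 subunit of the oxoglutarate dehydrogenase complex, which turns alpha-ketoglutarate into succinyl-CoA. Control libraries held 370, 381 and 385 CPM, siSLC25A1 libraries 382, 376 and 393, siACLY libraries 426, 442 and 445, and siACO1 libraries 351, 345 and 337. The siACLY libraries were all above and the siACO1 libraries all below the controls. OGDH rose in siACLY (log2 fold change 0.21, SE 0.04, adjusted p = 6.42e-05) and fell in siACO1 (-0.14, SE 0.04, adjusted p = 0.00543). The direct contrast of siACO1 with siACLY was -0.34 (adjusted p = 1.59e-08). The call in siACO1 was lost with library totals as the only scaling (-0.09, adjusted p = 0.0744), and without the third siACO1 library the value was -0.12.

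GPT2 (ENSG00000166123.14; GRCh38 chr16:46884378-46931297, plus strand) encodes the mitochondrial alanine transaminase, which makes alpha-ketoglutarate from glutamate while pyruvate becomes alanine. It was called in all 3 knockdowns, with opposite signs. Control libraries held 185, 172 and 182 CPM, siSLC25A1 libraries 190, 213 and 220, siACLY libraries 162, 158 and 164, and siACO1 libraries 127, 117 and 128. No group overlapped the controls. GPT2 rose in siSLC25A1 (log2 fold change 0.21, SE 0.05, adjusted p = 0.0026), fell in siACLY (-0.16, SE 0.05, adjusted p = 0.01) and fell further in siACO1 (-0.54, SE 0.05, adjusted p = 7.65e-10). Each pair of knockdowns differed, with siACLY 0.37 below siSLC25A1 and siACO1 0.38 below siACLY on the log2 scale (adjusted p = 8.71e-07 and 3.44e-07). The call in siACLY was lost with library totals alone (-0.12, adjusted p = 0.0584) and without the first control library (-0.14, adjusted p = 0.0577). The siACO1 value was -0.56 without the third library of that group.

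GOT1 (ENSG00000120053.12; GRCh38 chr10:99396870-99431569, minus strand) encodes the cytosolic aspartate transaminase, which turns aspartate into oxaloacetate. Control libraries held 124, 114 and 118 CPM, siSLC25A1 libraries 132, 146 and 144, siACLY libraries 148, 164 and 159, and siACO1 libraries 116, 119 and 131. GOT1 rose in siSLC25A1 (log2 fold change 0.25, SE 0.05, adjusted p = 0.000759) and in siACLY (0.40, SE 0.05, adjusted p = 3.33e-07), and in both groups all libraries were above the controls. The siACO1 libraries overlapped the controls (0.04, 95% interval -0.07 to 0.14; -0.02 without the third siACO1 library), and siACO1 was below siACLY by a log2 difference of -0.36 (adjusted p = 1.11e-06). The difference between siACLY and siSLC25A1 was 0.16 (adjusted p = 0.0181), and it was not called without the first siSLC25A1 library (0.11) or without the second or the third siACLY library (0.12 and 0.14). Of GOT1's exon bases 19.3% overlap a long noncoding RNA on the other strand.

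GOT2 (ENSG00000125166.13; GRCh38 chr16:58707131-58734357, minus strand) encodes the mitochondrial partner of GOT1, which makes aspartate from oxaloacetate and glutamate. Its mean was 427 ± 3.71 CPM in siControl, 423 ± 16.2 in siSLC25A1, 423 ± 12.1 in siACLY and 413 ± 17.2 in siACO1. The 95% intervals of the log2 fold change against siControl were -0.10 to 0.07, -0.10 to 0.07 and -0.13 to 0.04 in that order. Without the third siACO1 library the value in that group was -0.08 (adjusted p = 0.061). None of the 3 contrasts between knockdowns was called either, with adjusted p-values of 0.554, 0.557 and 0.998.

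MDH1 (ENSG00000014641.21; GRCh38 chr2:63588609-63607197, plus strand) encodes cytosolic malate dehydrogenase, which reduces oxaloacetate to malate. Control libraries held 175, 184 and 177 CPM and siACLY libraries 208, 208 and 199, with no overlap. The rise in siACLY was 0.20 on the log2 scale (SE 0.05, adjusted p = 0.00111). In siSLC25A1 (190, 178 and 178 CPM) and siACO1 (173, 174 and 197 CPM) the libraries overlapped the controls, with intervals of -0.07 to 0.12 and -0.08 to 0.12. The third siACO1 library was the high one, and without it the siACO1 value was -0.05 against 0.02. SiACLY was also above siSLC25A1 (0.17, adjusted p = 0.00502), and siACO1 below siACLY (-0.18, adjusted p = 0.00253).

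MDH2 (ENSG00000146701.12; GRCh38 chr7:76048051-76067508, plus strand) encodes the mitochondrial form, which oxidises malate to oxaloacetate in the cycle. Control libraries held 628, 624 and 641 CPM, siSLC25A1 libraries 530, 529 and 528, siACLY libraries 551, 570 and 557, and siACO1 libraries 558, 551 and 618. Every knockdown library was below every control library. The log2 fold change was -0.25 in siSLC25A1 (SE 0.04, adjusted p = 3.22e-05), -0.17 in siACLY (SE 0.04, adjusted p = 0.00127) and -0.13 in siACO1 (SE 0.04, adjusted p = 0.0112). The siACO1 call was the least stable. Its value was -0.19 without the third siACO1 library, which lay nearest the controls, and the call was lost without the first (-0.11) or second (-0.10) siACO1 library, without the third control library (-0.12) and with library totals alone (-0.08). SiACO1 was above siSLC25A1 by 0.12 (adjusted p = 0.0173), and without the third siACO1 library that difference was 0.06 and not called. It was also not called without the second or the third siSLC25A1 library or when only those groups were fitted.

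ASS1 (ENSG00000130707.18; GRCh38 chr9:130444929-130501274, plus strand) encodes argininosuccinate synthase, which joins aspartate to citrulline on the way to arginine and so uses cytosolic aspartate. It had the widest range of group means of the 9, 1.09 on the log2 scale. Control libraries held 35.6, 35.4 and 35.6 CPM, siSLC25A1 libraries 25.4, 34.6 and 32.8, siACLY libraries 23.0, 24.7 and 25.2, and siACO1 libraries 15.2, 16.0 and 18.9. No knockdown group overlapped the controls. The log2 fold change was -1.08 in siACO1 (SE 0.09, adjusted p = 4.68e-09) and -0.55 in siACLY (SE 0.09, adjusted p = 3.64e-05), and siACO1 was below siACLY by a log2 difference of -0.53 (adjusted p = 9.69e-05). Without the third siACO1 library the value against siControl was -1.19. In siSLC25A1 the value was -0.20 (SE 0.09, adjusted p = 0.112), with the first library far below the other 2. Without that library it was -0.08 (adjusted p = 0.559). It passed the threshold without the second siSLC25A1 library (-0.29, adjusted p = 0.0282), without the third siACO1 library (-0.21, adjusted p = 0.039), with no filter on low counts (-0.22, adjusted p = 0.0195) and with a replicate block (-0.21, adjusted p = 0.0434). Of the 31-base stretches of ASS1 transcripts 18.6% are shared with other genes, mostly ASS1 pseudogenes, and the 14 pseudogenes listed held at most 5 counts together in a library.

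The 5 genes whose log2 CPM followed that of ASS1 most closely over the 12 libraries were PYCR1 (Pearson's r = 0.981), VAT1 (0.973), HTRA1 (0.971), FTL (0.962) and ANKS6 (0.961), as a description over libraries that share 4 groups. All 5 had their highest group mean in siControl and their lowest in siACO1. PYCR1, which reduces pyrroline carboxylate to proline, was at 190, 173, 159 and 140 CPM in siControl, siSLC25A1, siACLY and siACO1.

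Promoter windows were at hand in RefSeq (GRCh38.p14, 250 bases before to 50 after a start) for 7 of the 9 genes, in 10 windows; GPT2 and OGDH had none. They are shown for the gene with the widest range and for the one that rose in both siSLC25A1 and siACLY, with motif matches in capitals. The motifs searched on both strands were the E-box CACGTG, bound by MYC and other basic helix-loop-helix factors, and TGATGNAA, a core of the C/EBP-ATF element bound by ATF4 and its partners. The pair do not overlap. The E-box occurs in 7.26% and TGATGNAA in 3.62% of all 35116 promoter windows. Among the members' windows the E-box was found in 1 of the ASS1 windows, 71 bases before the start, and TGATGNAA in that of GOT1, 198 bases before the start and read on the opposite strand. A match is no evidence that a factor binds there.
ASS1, chr9:130444711-130445010, plus strand: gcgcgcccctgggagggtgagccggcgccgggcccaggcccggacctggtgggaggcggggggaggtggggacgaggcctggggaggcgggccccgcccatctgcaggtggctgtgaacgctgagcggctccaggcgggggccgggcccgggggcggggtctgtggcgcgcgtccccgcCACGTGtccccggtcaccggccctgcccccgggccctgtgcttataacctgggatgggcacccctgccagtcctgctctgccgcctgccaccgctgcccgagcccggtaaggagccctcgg
GOT1, chr10:99430575-99430874, minus strand: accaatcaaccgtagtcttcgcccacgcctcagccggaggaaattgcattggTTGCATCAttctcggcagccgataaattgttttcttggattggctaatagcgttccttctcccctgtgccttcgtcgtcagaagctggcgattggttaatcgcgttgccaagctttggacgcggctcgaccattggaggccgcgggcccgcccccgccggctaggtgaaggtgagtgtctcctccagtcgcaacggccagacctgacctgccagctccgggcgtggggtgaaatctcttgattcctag

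The knockdowns were also set against each other for the 9 genes, in contrasts of group means that leave out the control mean, while the control libraries still entered the estimate of the spread. SiACO1 and siACLY differed in 7 of the 9, all lower in siACO1 (42.1% of all genes called, 20.7% higher and 21.4% lower, and 55.5% of the better-expressed ones), with a median log2 difference of -0.36 beside 0.00 for all genes. The exceptions were GOT2 and MDH2. SiACO1 and siSLC25A1 differed in 6, of which GLUD1, GOT1, GPT2, OGDH and ASS1 were lower and MDH2 higher in siACO1 (42.1% of all genes called, 20.3% higher and 21.8% lower, and 56.1% of the better-expressed ones). SiACLY and siSLC25A1 differed in 5, with GOT1, MDH1 and OGDH higher and GPT2 and ASS1 lower in siACLY (33.8% of all genes called, 16.3% higher and 17.5% lower, and 46.1% of the better-expressed ones). Within the malate-aspartate shuttle the cytosolic enzymes GOT1 and MDH1 both rose in siACLY, while mitochondrial GOT2 stayed within -0.10 to 0.07 and MDH2 fell.

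Around these enzymes, 8 lists of 71 neighbouring genes were examined, of which 56 were tested. Of those 56, 18 were called in siSLC25A1 (8 higher, 10 lower), 25 in siACLY (14 higher, 11 lower) and 25 in siACO1 (11 higher, 14 lower), which is 32.1%, 44.6% and 44.6%. The corresponding shares were 19.6%, 36.7% and 37.1% of all genes tested, and 29.3%, 48.6% and 50.3% of the better-expressed ones, so the lists together lay near the latter. Without the third siACO1 library 29 of the 56 were called in siACO1 (10 higher, 19 lower; 51.8%), beside 37.3% of all genes. Each siACO1 change named in the lists was still called without that library, except that of ASL. Genes under the filter included SLC25A12 and GLS2, with at most 6 and 12 counts in a library, and PCK2, which was listed at 0 throughout. Being listed at 0 is not shown to be absence.

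**Figure D4:**
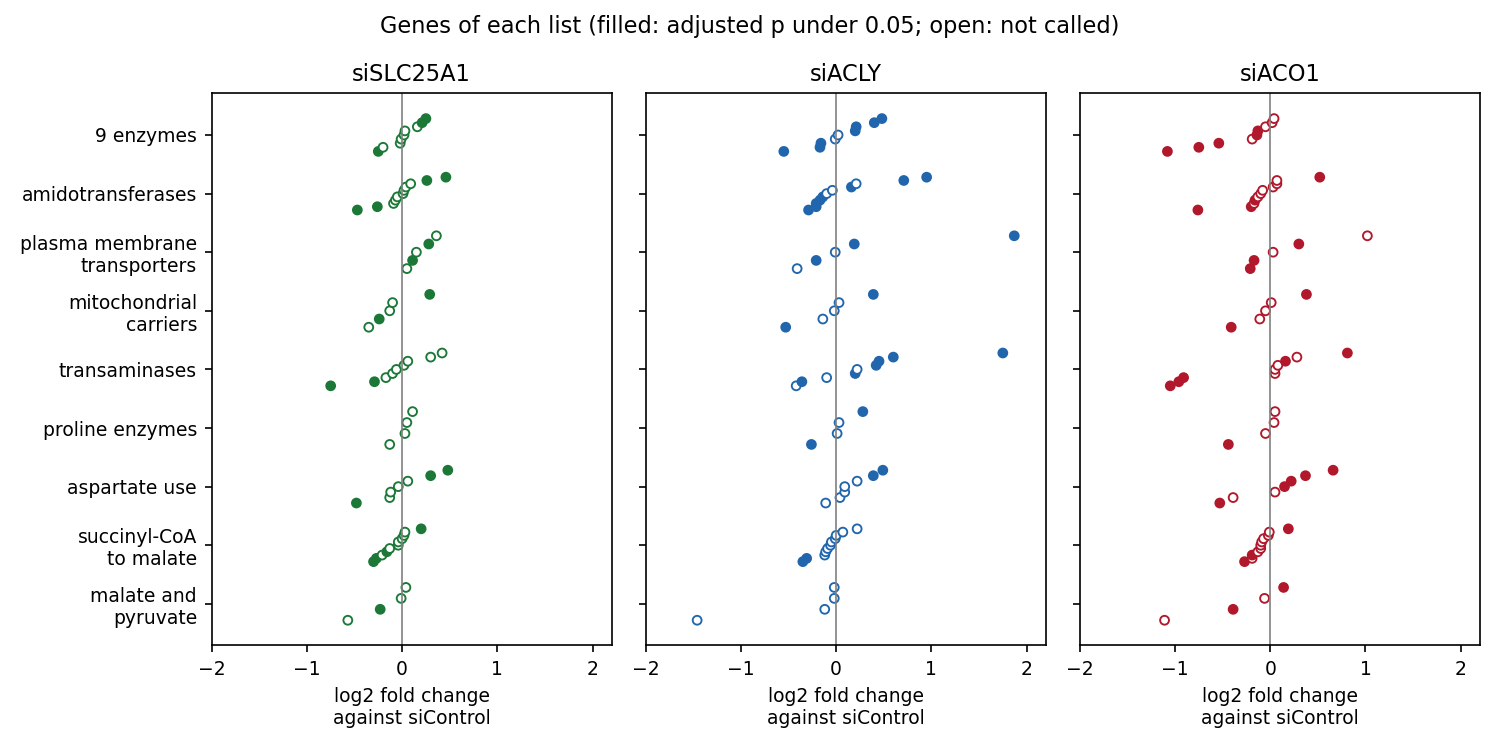
Log2 fold change against siControl of the 9 enzymes and of the tested genes of 8 neighbouring lists, by knockdown (filled: adjusted p under 0.05; open: not called). The transaminase list reaches 1.75 (ABAT, siACLY) and -1.05 (AADAT, siACO1), and SLC1A1, the transporter at 1.87 in siACLY, had a mean below 1 CPM in both groups.

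Among other glutamate-linked transaminases, 9 of 11 were tested. In siSLC25A1 2 fell and none rose, in siACLY 5 rose and 1 fell, and in siACO1 2 rose and 3 fell. These are 22.2%, 66.7% and 55.6% of the list, beside 19.6%, 36.7% and 37.1% of all genes. PSAT1, which uses glutamate in serine synthesis, was at 595 ± 22.8 CPM in siControl and 307 ± 22.6 in siACO1 (log2 fold change -0.96, adjusted p = 2.75e-13). Without the third siACO1 library the PSAT1 value was -1.02. Of its 31-base stretches 15.4% are found in other genes. AADAT, which transaminates aminoadipate, fell by 1.05 on the log2 scale in siACO1 (by 1.09 without that library) and rose by 0.60 in siACLY. ABAT, the GABA transaminase, rose from 1.65 ± 0.223 to 5.55 ± 0.300 CPM in siACLY (1.75, adjusted p = 3.46e-09). It also rose in siACO1 (0.81, adjusted p = 0.000957). The branched-chain transaminase BCAT2 fell by 0.29 in siSLC25A1 and 0.36 in siACLY, and rose by 0.16 in siACO1. ABAT fell in siSLC25A1 (-0.75), a call lost without the second or the third control library and without the first (-0.54) or the third siSLC25A1 library.

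Of 12 glutaminases and glutamine-dependent amidotransferases 11 were tested, with 2 higher and 2 lower in siSLC25A1, 3 higher and 5 lower in siACLY, and 1 higher and 3 lower in siACO1. The shares called were 36.4%, 72.7% and 36.4%, beside 19.6%, 36.7% and 37.1% of all genes. ASNS, which makes asparagine from aspartate and glutamine, rose in siACLY (10.5 ± 1.40 to 17.2 ± 0.647 CPM, log2 fold change 0.71, adjusted p = 2.4e-06) and fell in siACO1 (to 6.25 ± 0.672 CPM, -0.76, adjusted p = 4.25e-06; -0.68 without the third siACO1 library), but 44.6% of its exon bases overlap another gene model and its count is uncertain. GFPT1, the entry enzyme of the hexosamine pathway, rose by 0.46 in siSLC25A1 and 0.52 in siACO1. Its paralogue GFPT2 rose by 0.95 in siACLY and fell by 0.47 in siSLC25A1, the latter a call lost without the second or the third control library or without the first or second siSLC25A1 library (-0.39 to -0.46).

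Among plasma membrane transporters 5 of 9 were tested, with 2 higher in siSLC25A1, 2 higher and 1 lower in siACLY, and 1 higher and 2 lower in siACO1. That is 40%, 60% and 60% of a short list, beside 19.6%, 36.7% and 37.1% of all genes. SLC38A2, a sodium-coupled glutamine importer, was at 910 ± 12.7 CPM in siControl and rose by 0.19 in siACLY and 0.30 in siACO1. Its rise of 0.11 in siSLC25A1 was lost without any 1 control library and without the first or the third siSLC25A1 library (0.09 to 0.12), and with no filter on low counts (0.10). SLC38A1, of the same family, rose by 0.28 in siSLC25A1 and fell by 0.17 in siACO1. SLC1A5, the main glutamine exchanger, fell by 0.21 in both siACLY and siACO1, with 23.8% of its exon bases overlapping other genes.

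Of the mitochondrial carriers of the shuttle and of glutamate, 5 of 6 were tested, and in each knockdown 1 rose and 1 fell (40% each time, beside 19.6%, 36.7% and 37.1% of all genes). SLC25A13, the aspartate-glutamate carrier, rose by 0.29 in siSLC25A1 and 0.39 in siACLY and had a log2 fold change of 0.01 in siACO1 (adjusted p = 0.918). The same 2 knockdowns were those in which GOT1 rose. SLC25A11, the malate carrier of the shuttle, rose by 0.38 in siACO1. The glutamate carrier SLC25A22 fell by 0.24 in siSLC25A1 and 0.41 in siACO1. SLC25A18, of the same function, fell by 0.53 in siACLY from 2.18 ± 0.402 CPM, a call lost without the first or second control library, without the first or second siACLY library, with library totals alone, with no filter and with DESeq2 (-0.44 to -0.53).

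Among genes of aspartate use 7 of 10 were tested, with 2 higher and 1 lower in siSLC25A1, 2 higher in siACLY, and 4 higher and 1 lower in siACO1. The list's shares were 42.9%, 28.6% and 71.4%, beside 19.6%, 36.7% and 37.1% of all genes. Without the third siACO1 library 3 were higher and 1 lower in siACO1 (57.1%, beside 37.3% of all genes). ASL, which splits the product of ASS1 into arginine and fumarate, rose by 0.49 in siACLY (41.1 ± 2.19 to 57.5 ± 0.906 CPM, adjusted p = 1.02e-07), where ASS1 fell. It also rose by 0.30 in siSLC25A1 (adjusted p = 0.000389), where ASS1 was not called. In siACO1, where ASS1 fell most, ASL rose by 0.15 (adjusted p = 0.0489), a call kept in 7 of 19 alternative settings. Of ASL's exon bases 17.6% overlap another gene. NAT8L, which acetylates aspartate, fell by 0.48 in siSLC25A1 and 0.53 in siACO1. ARG2, the mitochondrial arginase, rose by 0.48, 0.39 and 0.66 in siSLC25A1, siACLY and siACO1, with 37.4% of its exon bases overlapping another gene.

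Of the partners of OGDH and the steps from succinyl-CoA to malate, all 11 were tested, with 1 higher and 3 lower in siSLC25A1, 2 lower in siACLY, and 1 higher and 2 lower in siACO1. Called shares were 36.4%, 18.2% and 27.3%, beside 19.6%, 36.7% and 37.1% of all genes. The siACO1 count rested on the third library, without which 1 was higher and 7 lower (72.7%, beside 37.3% of all genes). Among the 7 were DLD (-0.12) and SDHD (-0.18). DLD, the E3 subunit that OGDH shares with pyruvate dehydrogenase, fell by 0.30 in siSLC25A1, where DLST, another partner of OGDH, rose by 0.20. SDHD, an anchor subunit of succinate dehydrogenase, fell by 0.27 in siSLC25A1, with 22.9% of its 31-base stretches found in other genes. SUCLA2, the ATP-forming succinyl-CoA ligase subunit, fell by 0.35 in siACLY and rose by 0.19 in siACO1. It also fell by 0.16 in siSLC25A1, a call kept in 7 of 19 alternative settings. The shared subunit SUCLG1 fell by 0.31 in siACLY and 0.19 in siACO1. SDHA, the flavoprotein subunit, fell by 0.27 in siACO1, with 18.4% of its 31-base stretches found in other genes.

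Proline interconversion had 4 of 6 genes tested, with none called in siSLC25A1, 1 higher and 1 lower in siACLY and 1 lower in siACO1 (0%, 50% and 25%, beside 19.6%, 36.7% and 37.1% of all genes). The siACLY calls were ALDH4A1, which rose by 0.28, and PYCR1, which fell by 0.26, and PYCR1 fell by 0.44 in siACO1. Of their exon bases 41.1% and 29.7% overlap other genes. Of malic enzymes and the enzymes between pyruvate and oxaloacetate, 4 of 6 were tested, with 1 lower in siSLC25A1, none called in siACLY, and 1 higher and 1 lower in siACO1 (25%, 0% and 50%, beside 19.6%, 36.7% and 37.1% of all genes). ME1, the cytosolic malic enzyme, which makes NADPH from the malate supplied by MDH1, fell by 0.23 in siSLC25A1 and 0.39 in siACO1. In siACO1 PC, pyruvate carboxylase, rose by 0.14 (adjusted p = 0.0493), a call lost without any 1 control library and in 11 other settings tried (0.10 to 0.16).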

How the data were processed

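Per the file headers and values, the authors deposited 1 table of raw read counts per gene for 12 libraries, unnormalized. The submitters' processing notes name STAR 2.7.0e, Trim Galore and the builds GRCh38 and GRCm39, with no roles; the counting tool, annotation release and use of strand are not given in the sources used here. Symbols came from a table of gene names (62700 identifiers, 89.4%), and gene models from GENCODE release 29 on GRCh38. Genes passing edgeR's filterByExpr were fitted with edgeR 4.0.16 (R 4.3.3): TMM scaling, robust quasi-likelihood F tests, 4 groups, no block, 8 residual degrees of freedom, Benjamini-Hochberg adjustment. Intervals are at 95%. Shares of exon bases overlapping other genes, and of 31-base stretches found in them, came from the same models.

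The members and lists were chosen with earlier results of these data known. Named neighbours were, per list and knockdown, up to 2 called genes with the largest change whose higher group averaged 1 CPM or more. SLC1A1, GLS2, SLC25A12, PCK2 and DLST were named after their values were seen. Changes of ASL, ABAT, BCAT2, SLC38A1, SUCLG1 and SUCLA2 in knockdowns outside this rule were also added then. Heptamers were ranked over 3' UTRs of genes averaging 1 CPM or more, within 20 bins of UTR length, with at least 100 carriers. On counts simulated for siACO1 against siControl, 82.7% of 98 genes with a log2 change of 1 were called. The share was 54.5% of 99 genes with a change of 0.5, and 12 of 15673 unchanged genes were called. Only these few genes were changed in the simulation, while 37.1% of all genes were called in the real comparison. The adjustment is stricter when few genes change, so these rates do not describe the real comparison. Alternatives were median-of-ratios (RLE) factors, library totals, no filter, 10 counts in every library, DESeq2 1.42.0, fits of only the groups compared, a replicate block, and each of the 12 libraries left out.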

Additional observations from a re-analysis of the deposited data

How the results depend on the processing

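Each comparison was repeated under 19 alternative settings. The number of the 9 enzymes called in siACO1 against siControl was 5, and 3 with library totals as the only scaling. That setting shifted the all-gene median log2 fold change from 0.006 to 0.055 and took the calls of OGDH and MDH2; the other 5 counts stayed within 1.5 times of their value under every setting. Of 1026 single values of the 9 enzymes under an alternative, 1002 kept their side of the threshold, 15 lost it and 9 gained it, and no called value changed sign. The sign of 6 values that were never called changed in at least 1 setting, all of them between -0.08 and 0.09 in every setting. With a replicate block 3 of the 9 were called in siSLC25A1 plus ASS1 (4 in all), and the counts were 7 in siACLY and 5 in siACO1 as without it. The labels state no pairing by replicate number. Of 18 same-numbered pairs of libraries 1 had a correlation of deviations over 0.1 (range -0.081 to 0.121, beside -0.118 to 0.138 for other pairs). Of 36 best matches, each among the 3 libraries of another group, 20 were to the same number. With the block, calls among all genes went from 3173 to 3270 in siSLC25A1, 5944 to 6038 in siACLY and 6008 to 6093 in siACO1. Whether the numbers mark libraries handled together was not tested. Depth limits GLUL most, at 83 to 261 counts. Counts of called neighbouring genes without the third siACO1 library were added after seeing the data.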
